A study of Mus musculus with 3 samples.

Results

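The genes described here are 41 genes of glycolysis and of the response to low oxygen, out of 20145 mouse genes that could be named on the array. They were chosen by name, from knowledge of the pathways, and every array probe whose RefSeq transcript belonged to one of them was used. Earlier results of these data were known at that time, among them a low Egln3 signal in the embryonic cells. All 41 genes had at least 1 probe, and 67 probes covered them, so a gene's value is the mean over its probes. They comprise 4 transporters of glucose and lactate, 9 enzymes of upper glycolysis, 8 enzymes of lower glycolysis and lactate formation, 4 regulators, 4 hypoxia-inducible factors (HIF) and oxygen sensors, and 12 other genes of the hypoxia response.

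Each of 3 sorted cell populations was measured on 1 one-colour microarray, and all 3 arrays lay on 1 slide. MGE Lhx6-GFP+ cells were sorted fresh from the medial ganglionic eminence (MGE), the ventral forebrain region that produces cortical interneurons, of E12.5 female CD1 embryos with an Lhx6-GFP BAC transgene. The cultured populations, ES Lhx6-GFP- and ES Lhx6-GFP+, came from male 129S4/SvJae J14 embryonic stem (ES) cells with the same kind of BAC and a 692-mCherry enhancer-reporter virus, differentiated for 12 days as floating aggregates with 100 ng/ml Dkk-1, which blocks Wnt signalling, and 6 nM SAG, which activates hedgehog signalling. The BAC places GFP under the control of Lhx6, the gene of a transcription factor of newly postmitotic MGE neurons, and the ES populations came from the same line and protocol. Strain, sex, embryo or culture, the reporter virus and the dissociation (trypsin for embryos, a neural tissue kit with a Rock inhibitor for aggregates) all change together between the MGE array and the ES arrays, so they cannot be told apart. With 1 array per population no test across samples was possible, and differences are given by size beside the spread of repeated spots on an array.

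Glycolysis splits glucose into pyruvate, and lactate dehydrogenase turns pyruvate into lactate when oxygen or mitochondrial use of pyruvate is limited. The HIF-alpha proteins are marked for destruction by prolyl hydroxylases (the Egln enzymes) when oxygen is present. In low oxygen they persist, pair with Arnt and bind short DNA elements near genes of glucose uptake, glycolysis, angiogenesis and collagen modification, including the Egln3 gene itself.

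A level below is the log2 of a signal relative to the 75th percentile of its array, so a level of 0 is the 75th percentile. Most of the genes were lower in the embryonic MGE cells than in either cultured population. In sorted populations, fewer cells of a type and less RNA per cell cannot be told apart, and this holds for each difference given. Of 40 genes with a value, 21 were at least 2-fold lower in MGE Lhx6-GFP+ than in both ES populations, and 1, Pdk3, was at least 2-fold higher than in both. Over all 16807 genes measured in both comparisons the shares were 11.8% lower and 3.46% higher. The 21 genes were Slc2a1, Slc2a3, Slc16a3, Hk2, Gpi1, Pfkl, Pfkp, Aldoc, Tpi1, Pgk1, Eno1, Ldha, Pdk1, Epas1, Egln3, Vegfa, Adm, Bnip3, Ndrg1, P4ha1 and P4ha2. Slc16a1, which encodes a lactate transporter, was not well above background on any array and has no difference.

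In MGE Lhx6-GFP+ against ES Lhx6-GFP+ cells, the pair sorted on the same reporter, 22 of the 40 genes were at least 2-fold lower and 2 were at least 2-fold higher. The background there was 32.2% lower and 5.48% higher of 18580 genes, and the median difference was -1.05 for the 40 genes beside -0.36 for all genes. Against ES Lhx6-GFP- cells 22 were lower and 2 higher, where the background was 17.2% lower and 9.9% higher of 17025 genes, with medians of -1.48 and -0.06. Both comparisons share the MGE array. Between the ES populations 8 genes were at least 2-fold lower in ES Lhx6-GFP+ than in ES Lhx6-GFP- and none was higher, beside 6.4% lower and 24% higher of 18655 genes. The medians were -0.25 for the 40 genes and 0.27 for all genes. These shares cover all measured genes, including those within the range of the control probes described next.

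**Figure D1:**
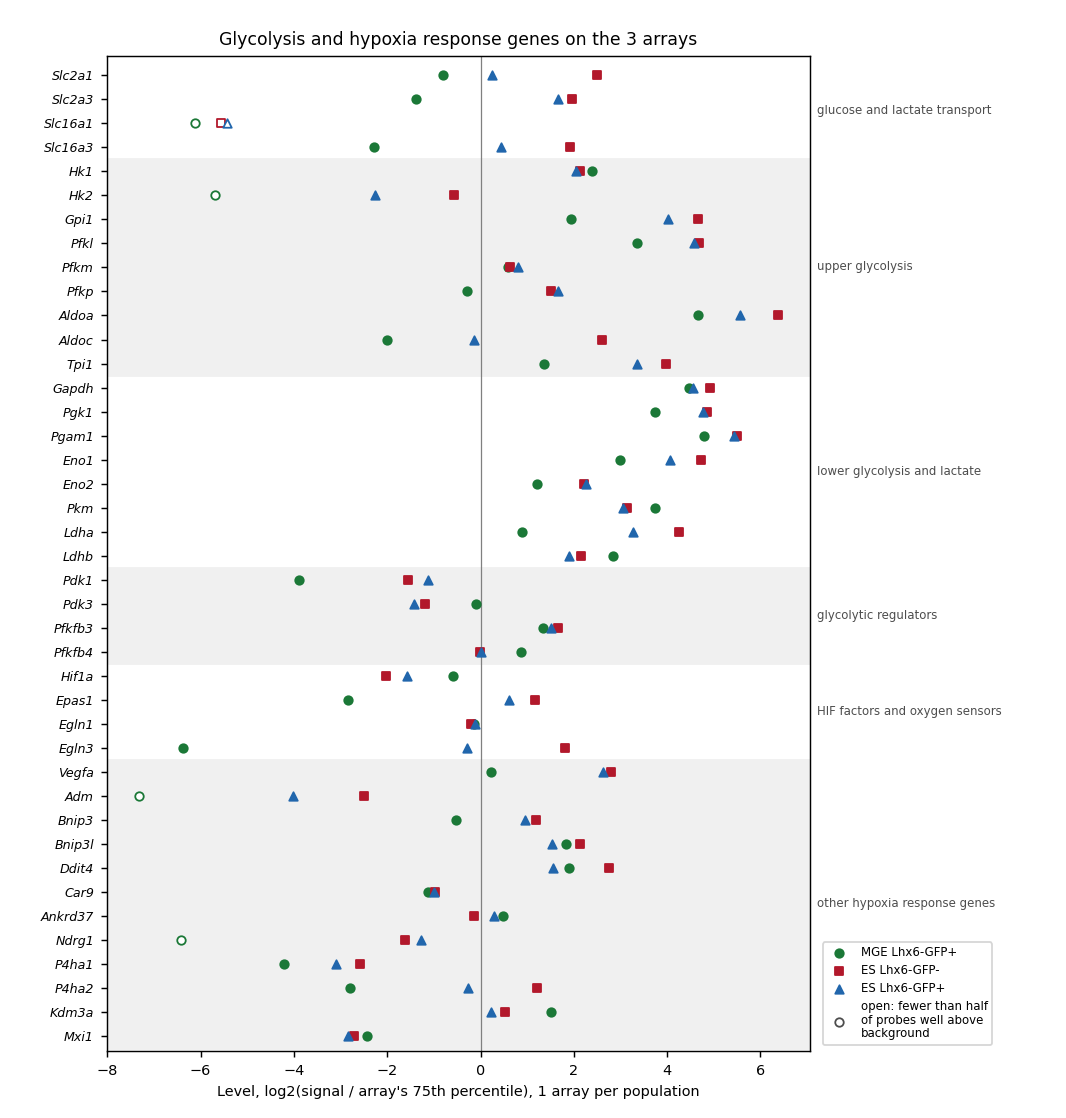
Level of each of the 41 genes (mean over its probes, log2 of the signal over the array's 75th percentile) on the 3 arrays, 1 array per population, grouped by role. Open symbols mark a gene with less than a 0.5 share of its probes well above background; Egln3 runs from -6.38 in MGE Lhx6-GFP+ to 1.82 in ES Lhx6-GFP-, while Egln1 stays between -0.21 and -0.11.

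Background signal bears on low levels. The 95th percentile of 106 control probes for spiked-in viral and synthetic RNAs was a level of -1.93 for MGE cells and, for the cultured populations, -2.04 (ES Lhx6-GFP-) and -0.99 (ES Lhx6-GFP+), so a gene below these levels was within the range of the controls. Probes well above background by the scanner software's own call made up 77.1%, 80.3% and 90.6% of mouse probes in the same order. Of the 21 genes lower in MGE than in both ES populations, 11 were above the controls on all 3 arrays. The other 10 (Adm, Aldoc, Egln3, Epas1, Hk2, Ndrg1, P4ha1, P4ha2, Pdk1 and Slc16a3) were not above them in MGE, and 5 of these (Adm, Hk2, Ndrg1, P4ha1 and Pdk1) were not above them in ES Lhx6-GFP+ either. Where a probe was not well above background, its level was raised to the lowest signal of that array that was, and the fold is given as "at least". This lowest signal lies well below the controls, so for the genes concerned the difference with the floor at the control level is given as well. The all-gene shares include low signals too. Among all genes with a mean level above the controls, 889 of 9975 were 2-fold lower and 801 higher in MGE than in ES Lhx6-GFP+. Against ES Lhx6-GFP- these were 1031 and 1179 of 9974. Of the 34 genes described here that passed, 17 were lower and 2 higher in each comparison. In ES Lhx6-GFP+ against ES Lhx6-GFP- 625 of 9973 were lower and 571 higher, beside 6 and 0 of the 34. A gene low on 1 array can pass this filter through the others.

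Promoter sequences were looked at because many of these genes are described as direct HIF targets. HIF binds the core of the hypoxia response element, searched here as ACGTG or GCGTG on either strand (CACGT and CACGC on the other strand) in the 250 bases before each RefSeq start, build GRCm38.p6. Overlapping matches, as in CACGTG, which holds the first core on both strands and is also the E-box bound by Myc and Bhlhe proteins, were counted once. Promoter entries matched 37 of the 41 genes, and Slc2a3, Epas1, Bnip3l and Ndrg1 had none. Stretches of 60 bases are shown for 5 genes with different roles that were lower in the embryonic cells than in culture, 5′ to 3′ along the gene, with matches in capitals. They lie at chr12:54204065-54204124 (minus strand) for Egln3, chr4:119108681-119108740 (plus) for Slc2a1, chr11:54100818-54100877 (plus) for P4ha2, chr7:138909583-138909642 (minus) for Bnip3 and chrX:106186931-106186990 (plus) for Pgk1.
Egln3: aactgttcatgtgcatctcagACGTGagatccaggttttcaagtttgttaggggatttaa
Slc2a1: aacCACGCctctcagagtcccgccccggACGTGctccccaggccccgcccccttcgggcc
P4ha2: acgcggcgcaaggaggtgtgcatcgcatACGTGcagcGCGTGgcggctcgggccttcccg
Bnip3: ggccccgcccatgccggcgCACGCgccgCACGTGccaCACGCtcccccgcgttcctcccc
Pgk1: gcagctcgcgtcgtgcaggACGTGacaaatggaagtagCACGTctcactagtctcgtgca

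For contrast, 3 genes that were not lower in MGE cells are shown the same way. Egln1 and Car9 had like levels on the 3 arrays, with Car9 within the control range in ES Lhx6-GFP+, and Pdk3 was higher in MGE cells. They lie at chr8:124949291-124949350 (minus strand) for Egln1, chr4:43506966-43507025 (plus) for Car9 and chrX:93832172-93832231 (minus) for Pdk3.
Egln1: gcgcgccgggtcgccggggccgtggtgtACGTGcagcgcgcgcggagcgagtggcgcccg
Car9: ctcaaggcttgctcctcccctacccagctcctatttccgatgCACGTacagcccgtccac
Pdk3: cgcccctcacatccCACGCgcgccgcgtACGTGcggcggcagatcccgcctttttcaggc

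The ACGTG core was present before a start of 23 of the 37 genes, or 62.2%, beside 18.5% of 27025 genes with a promoter entry. Counted by promoter it was in 27 of 55, or 49.1%, beside 16.6% of 32851 promoters. Either core was in 78.2% of the 55 promoters and in 38.6% of all promoters. The median GC content of the searched bases was 60.4% in these genes and 52.4% in all promoters, and CG pairs, which both cores contain, had a median of 14 and 6. Since the genes were picked as a hypoxia response list, the excess describes the list. It did not separate the genes by the 2-fold call: 10 of the 18 genes with an entry that were lower in MGE than in both ES populations had the ACGTG core, as had 13 of the other 19 genes. The other 19 are not all unchanged. With the core among them were Slc16a1, which has no difference, and Aldoa and Pgam1. These last were lower in MGE than in both ES populations, but short of 2-fold in at least 1 comparison.

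The 3 transporters of glucose and lactate with a value were lower in MGE cells than in both ES populations. Slc2a1 (GLUT1, the widely used glucose carrier; chr4:119108745-119137330, GRCm38.p6 as for all coordinates here) had a level of -0.80 in MGE Lhx6-GFP+, 2.49 in ES Lhx6-GFP- and 0.25 in ES Lhx6-GFP+. It was thus 2.08-fold lower in MGE than in ES Lhx6-GFP+ and 9.79-fold lower than in ES Lhx6-GFP-, and the ES populations differed 4.71-fold. Slc2a3 (GLUT3, the neuronal glucose carrier; chr6:122727809-122802363) had levels of -1.39, 1.95 and 1.65 in the same order. Here the cultured populations lay close together, 1.23-fold apart, and the MGE cells were 8.22-fold and 10.1-fold below ES Lhx6-GFP+ and ES Lhx6-GFP-. Slc16a3 (MCT4, which exports lactate from glycolytic cells; chr11:120948484-120959000) had levels of -2.28, 1.91 and 0.43. Its 2 probes gave like patterns, and it was 6.55-fold lower in MGE than in ES Lhx6-GFP+ and 18.2-fold lower than in ES Lhx6-GFP-. On the MGE array both Slc16a3 probes were within the control range.

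In upper glycolysis 7 of 9 genes were at least 2-fold lower in MGE cells against ES Lhx6-GFP-, and 6 of 9 against ES Lhx6-GFP+. The shares of all genes there were 17.2% and 32.2%. The hexokinases, which trap glucose by phosphorylation, went different ways. Hk2, the inducible form, was not well above background in MGE Lhx6-GFP+ (level -5.69) and had levels of -0.57 in ES Lhx6-GFP- and -2.27 in ES Lhx6-GFP+. It was at least 9.88-fold lower in MGE than in ES Lhx6-GFP+ and at least 32.2-fold lower than in ES Lhx6-GFP-, with 3.26-fold between the ES populations. These bounds depended on the processing, since in ES Lhx6-GFP+ Hk2 was within the control range. With the floor at the control probes the log2 difference in MGE was -1.36 from ES Lhx6-GFP- and none could be given from ES Lhx6-GFP+, and with the deposited values it was -2.70 and -0.79, the latter below 2-fold. Hk1, the constitutive form of brain, had mean levels of 2.38, 2.13 and 2.04 in MGE, ES Lhx6-GFP- and ES Lhx6-GFP+, which differ by less than the 2 SDs of repeated spots (1.32-fold). Its 2 probes disagreed, however. In MGE against ES Lhx6-GFP+ they gave log2 differences of 0.76 and -0.07, and in ES Lhx6-GFP+ against ES Lhx6-GFP- they gave -0.59 and 0.41.

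Gpi1, which turns glucose-6-phosphate into fructose-6-phosphate, had levels of 1.93, 4.67 and 4.01, and all 3 probes showed the same order. MGE cells were 4.24-fold below ES Lhx6-GFP+ and 6.69-fold below ES Lhx6-GFP-. Of the phosphofructokinases, which catalyse the committed step, Pfkl had levels of 3.35, 4.68 and 4.58 and was 2.34-fold and 2.51-fold lower in MGE. Pfkm, the muscle form, differed by at most 0.24 on the log2 scale between any 2 arrays. Pfkp, the platelet form, had mean levels of -0.30, 1.50 and 1.67, but its 2 probes disagreed. One probe read -1.08, 1.81 and 2.93, and the other 0.48, 1.19 and 0.41, so the 3.92-fold mean difference between MGE and ES Lhx6-GFP+ came from 1 probe.

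The aldolases cleave fructose bisphosphate. Aldoc, the form of brain (chr11:78323073-78327781), had the widest range of the glycolytic enzymes that were well above background on all 3 arrays, with levels of -2.00 in MGE Lhx6-GFP+, 2.60 in ES Lhx6-GFP- and -0.15 in ES Lhx6-GFP+. It was 3.60-fold lower in MGE than in ES Lhx6-GFP+, 24.2-fold lower than in ES Lhx6-GFP-, and 6.72-fold lower in ES Lhx6-GFP+ than in ES Lhx6-GFP-. Aldoa, the ubiquitous form, had levels of 4.66, 6.38 and 5.56 and was 1.86-fold and 3.28-fold lower in MGE, so it reached 2-fold against ES Lhx6-GFP- alone. Tpi1, which interconverts the triose phosphates, had levels of 1.36, 3.98 and 3.36 and was 3.99-fold and 6.13-fold lower in MGE, with both probes in the same order.

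**Figure D2:**
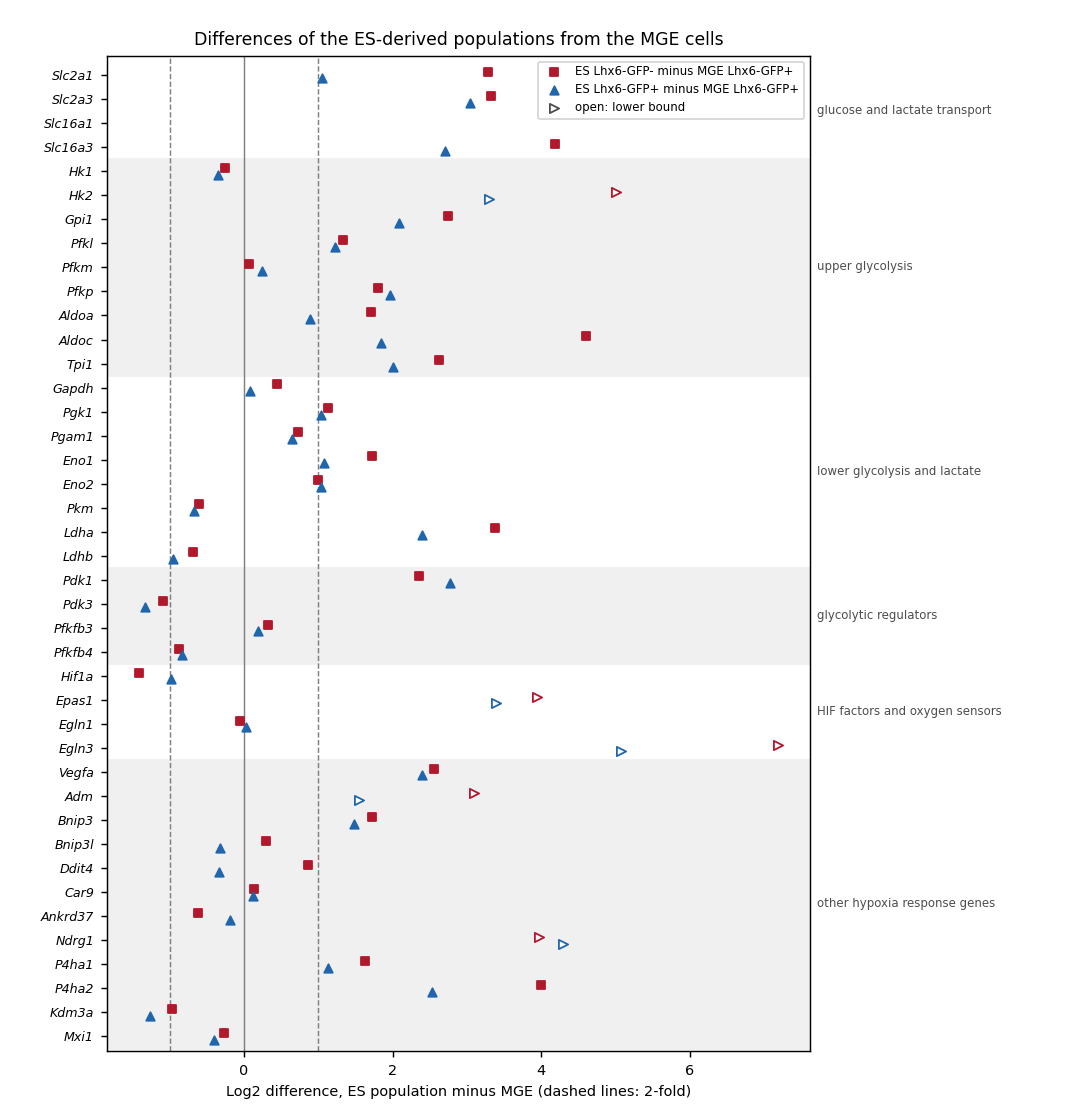
Log2 difference of each ES population from MGE Lhx6-GFP+ for each gene, with dashed lines at 2-fold; open triangles are lower bounds because at least 1 probe of the gene was not well above background in MGE cells. The points to the right of 1 include Egln3 at 7.19 and 5.07 and Aldoc at 4.60 and 1.85, and those to the left of 0 in both include Pdk3, Hif1a and Kdm3a.

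In lower glycolysis the differences were smaller, with medians of -0.84 against ES Lhx6-GFP+ and -0.86 against ES Lhx6-GFP- over 8 genes. Gapdh, often used as a reference gene, had mean levels of 4.47, 4.92 and 4.55 over 7 probes, with log2 differences of -0.08 and -0.45 in MGE from ES Lhx6-GFP+ and ES Lhx6-GFP-. Its probes ranged widely in level, and Gapdh has many processed pseudogenes, so which transcripts they read is uncertain. Pgk1, which makes ATP from bisphosphoglycerate (chrX:106187100-106203699), had levels of 3.73, 4.86 and 4.77 and was 2.05-fold and 2.18-fold lower in MGE than in ES Lhx6-GFP+ and ES Lhx6-GFP-. Pgam1 differed by 0.65 and 0.72 in the same direction, below 2-fold.

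Eno1, the ubiquitous enolase, had levels of 3.00, 4.72 and 4.07, a 2.10-fold and 3.29-fold lower signal in MGE. Eno2, the neuronal enolase, had levels of 1.22, 2.22 and 2.26, which is 2.05-fold lower in MGE than in ES Lhx6-GFP+ and just short of 2-fold against ES Lhx6-GFP-. Pkm, pyruvate kinase, went the other way, with levels of 3.73, 3.13 and 3.05. Which of its M1 and M2 splice forms the probe reads was not examined.

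The lactate dehydrogenase subunits moved in opposite directions. Ldha (chr7:46842274-46855627), whose subunit favours lactate formation, had levels of 0.88 in MGE Lhx6-GFP+, 4.26 in ES Lhx6-GFP- and 3.27 in ES Lhx6-GFP+. It was 5.25-fold lower in MGE than in ES Lhx6-GFP+ and 10.4-fold lower than in ES Lhx6-GFP-, and each of its 3 probes gave this order. Ldhb, whose subunit favours lactate use, had levels of 2.85, 2.16 and 1.89, higher in MGE by 0.96 and 0.69 on the log2 scale.

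The regulators were split. Pdk1, a kinase that shuts pyruvate dehydrogenase, had levels of -3.90, -1.55 and -1.12 and was 6.84-fold lower in MGE than in ES Lhx6-GFP+ and 5.10-fold lower than in ES Lhx6-GFP-. With the floor at the control probes the difference from ES Lhx6-GFP- was -0.38, and none could be given from ES Lhx6-GFP+. Pdk3, a kinase of the same family, had levels of -0.10, -1.19 and -1.42, which is 2.51-fold and 2.13-fold higher in MGE than in ES Lhx6-GFP+ and ES Lhx6-GFP-. It was within the control range in ES Lhx6-GFP+, and its call did not hold under each setting. With the deposited values, with normexp background correction and with median intensity the log2 difference from ES Lhx6-GFP- was 0.91, 0.92 and 0.95, and with the floor at the control probes that from ES Lhx6-GFP+ was 0.89. Pfkfb3 and Pfkfb4, which set the level of fructose-2,6-bisphosphate, did not reach 2-fold: Pfkfb3 differed by -0.19 and -0.32, and Pfkfb4 was higher in MGE by 0.84 and 0.87.

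The oxygen sensors Egln3 and Egln1 gave unlike patterns. Egln3 (PHD3, a prolyl hydroxylase that is itself a HIF target; chr12:54178981-54203874) had a level of -6.38 in MGE Lhx6-GFP+, 1.82 in ES Lhx6-GFP- and -0.30 in ES Lhx6-GFP+. In MGE cells 1 of its 2 probes was not well above background. The difference was at least 33.6-fold against ES Lhx6-GFP+ and at least 146-fold against ES Lhx6-GFP-, with 4.34-fold between the ES populations, and both probes gave this order. The size depended on the processing: with the floor at the control probes the log2 differences in MGE from ES Lhx6-GFP+ and ES Lhx6-GFP- were -2.35 and -3.75, and with normexp background correction they were -2.94 and -4.96. Its low level in MGE cells was known when the genes were chosen. Egln1 (PHD2, the main oxygen sensor of most cells) had levels of -0.14, -0.21 and -0.11, which do not differ beyond repeated spots.

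Of the HIF-alpha genes, Hif1a had levels of -0.60, -2.02 and -1.58 and was higher in MGE, 2.67-fold over ES Lhx6-GFP- and 1.97-fold over ES Lhx6-GFP+. Its level was within the control range in ES Lhx6-GFP+ and just above it in ES Lhx6-GFP-. Over the other settings its log2 difference from ES Lhx6-GFP+ fell to as little as 0.39, just below 2 SDs of repeated spots. Epas1 (HIF-2-alpha; chr17:86753864-86833410) had mean levels of -2.85, 1.17 and 0.60 and was at least 10.5-fold and 15.5-fold lower in MGE than in ES Lhx6-GFP+ and ES Lhx6-GFP-. Its 3 probes did not agree. The first read -4.65, 2.63 and 2.14, the second was not well above background in MGE and read -1.35 and -2.38 in the ES populations, and the third read 1.86, 2.22 and 2.05. With the floor at the control probes the log2 differences were -2.12 and -1.83. With the third, brightest probe alone they were -0.19 and -0.35, so the call for Epas1 depends on the probe.

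**Figure D3:**
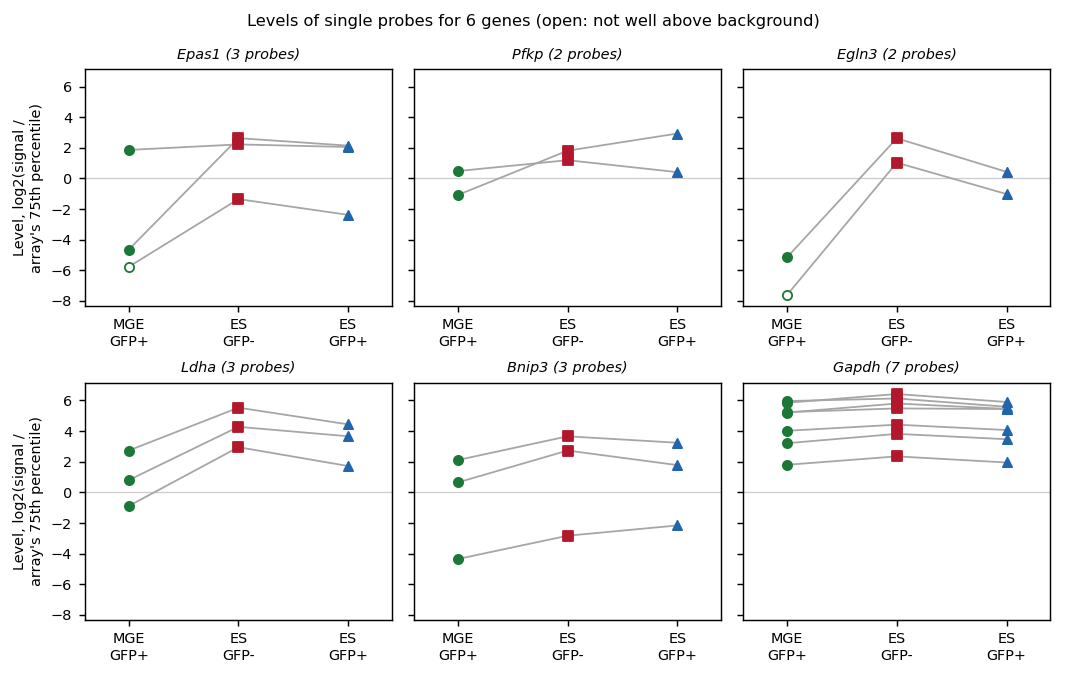
Level of each probe (log2 of the signal over the array's 75th percentile) for 6 genes on the 3 arrays, with lines joining 1 probe and open symbols for a probe not well above background. Each probe of Egln3 and of Ldha is highest in ES Lhx6-GFP- and lowest in MGE Lhx6-GFP+, whereas 1 of 3 Epas1 probes is nearly flat at 1.86 to 2.22 and the 2 Pfkp probes part in ES Lhx6-GFP+.

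The 12 other hypoxia response genes fell into a group that was lower in MGE cells and a group that was not. Vegfa, the main angiogenic growth factor (chr17:46016993-46032377), had levels of 0.23, 2.79 and 2.62 and was 5.26-fold lower in MGE than in ES Lhx6-GFP+ and 5.88-fold lower than in ES Lhx6-GFP-. P4ha2, a collagen prolyl hydroxylase (chr11:54100924-54131668), had levels of -2.80, 1.20 and -0.27. It was 5.79-fold and 16.0-fold lower in MGE, and 2.77-fold lower in ES Lhx6-GFP+ than in ES Lhx6-GFP-. P4ha1, its relative, had levels of -4.22, -2.59 and -3.09 and was 2.18-fold and 3.09-fold lower, but its mean level lay within the control range on all 3 arrays.

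Ndrg1, a stress response gene, was not well above background in MGE (level -6.42) and had levels of -1.61 in ES Lhx6-GFP- and -1.28 in ES Lhx6-GFP+, at least 15.6-fold and at least 19.7-fold higher. Its level in the ES Lhx6-GFP+ cells was within the control range. With the floor at the control probes the log2 difference in MGE was -0.32 from ES Lhx6-GFP-, below 2-fold, and none could be given from ES Lhx6-GFP+, while with the deposited values it was -2.28 and -2.39. Adm, the vasodilator adrenomedullin, had levels of -7.33, -2.49 and -4.03. It was not well above background in MGE and within the control range on the other arrays, and it was at least 2.92-fold lower in MGE than in ES Lhx6-GFP+ and at least 8.49-fold lower than in ES Lhx6-GFP-. Against ES Lhx6-GFP+ its log2 difference was -0.04 with the deposited values, -0.33 with normexp and -0.57 with median intensity, so that call was lost, and with the floor at the control probes no difference could be given. Bnip3, a mitophagy receptor, had mean levels of -0.53, 1.19 and 0.95 and was 2.80-fold and 3.29-fold lower in MGE. Each of its 3 probes was lower there than in either ES population, but 1 was within the control range on every array. The other 2 each gave 2.19-fold from ES Lhx6-GFP+, and 4.23-fold and 2.95-fold from ES Lhx6-GFP-.

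The other 6 of these genes were not lower in MGE than in both ES populations at 2-fold. Bnip3l, the second mitophagy receptor, differed by 0.32 and -0.30 over 4 probes. Car9, a carbonic anhydrase often taken as a marker of hypoxic cells, had levels between -1.12 and -0.98, which do not differ beyond repeated spots. In ES Lhx6-GFP+ its level was within the control range. Ddit4, an mTOR inhibitor that also answers other stresses, had levels of 1.90, 2.75 and 1.56, so it was 2.29-fold lower in ES Lhx6-GFP+ than in ES Lhx6-GFP- with MGE cells between them. Ankrd37 differed by 0.19 and 0.62, and Mxi1, which was within the control range on every array, by 0.40 and 0.27. Kdm3a, a histone demethylase, had levels of 1.50, 0.53 and 0.23 and was 2.41-fold higher in MGE than in ES Lhx6-GFP+ and 1.96-fold higher than in ES Lhx6-GFP-.

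Beyond 2 SDs of repeated spots, 24 of 40 genes were higher in both ES populations than in MGE, beside 26.4% of all genes. By the same measure 6 were higher in MGE than in both (Pkm, Ldhb, Pdk3, Pfkfb4, Hif1a and Kdm3a), beside 15.7% of all genes, and 10 were neither. Pdk3 and Hif1a among the 6 were within the control range in ES Lhx6-GFP+. In 14 genes the order was ES Lhx6-GFP- above ES Lhx6-GFP+ above MGE with each step beyond that spread, as it was in 7.03% of all genes. The 8 genes at least 2-fold apart between the ES populations were Slc2a1, Slc16a3, Hk2, Aldoc, Egln3, Adm, Ddit4 and P4ha2, all lower in ES Lhx6-GFP+.

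Of the 21 genes, 10 stayed at least 2-fold lower in MGE than in both ES populations under each of 10 other ways of processing the arrays, namely Aldoc, Egln3, Gpi1, Ldha, P4ha2, Pfkp, Slc16a3, Slc2a3, Tpi1 and Vegfa, although 1 of the 2 Pfkp probes did not show it. The other 11 fell below 2-fold in at least 1 of these, and where a value could be had all 21 but P4ha1 kept their side. Adm had no value in 3 of the alternative comparisons, and Hk2, Ndrg1, P4ha1 and Pdk1 had none in 1 each. P4ha1 was higher in MGE than in ES Lhx6-GFP+ by 0.40 on the log2 scale after quantile normalization. The 50th percentile in place of the 75th moved the median of all genes from -0.36 to 0.40 for MGE against ES Lhx6-GFP+, and the median of these genes from -1.05 to -0.30, so that the distance between them was -0.69 and -0.70. With that scaling Gapdh, Egln1, Car9 and Pgam1 read higher in MGE than in ES Lhx6-GFP+, by 0.67, 0.72, 0.62 and 0.10, and the 6 genes named as higher in MGE kept their side in every setting.

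**Figure D4:**
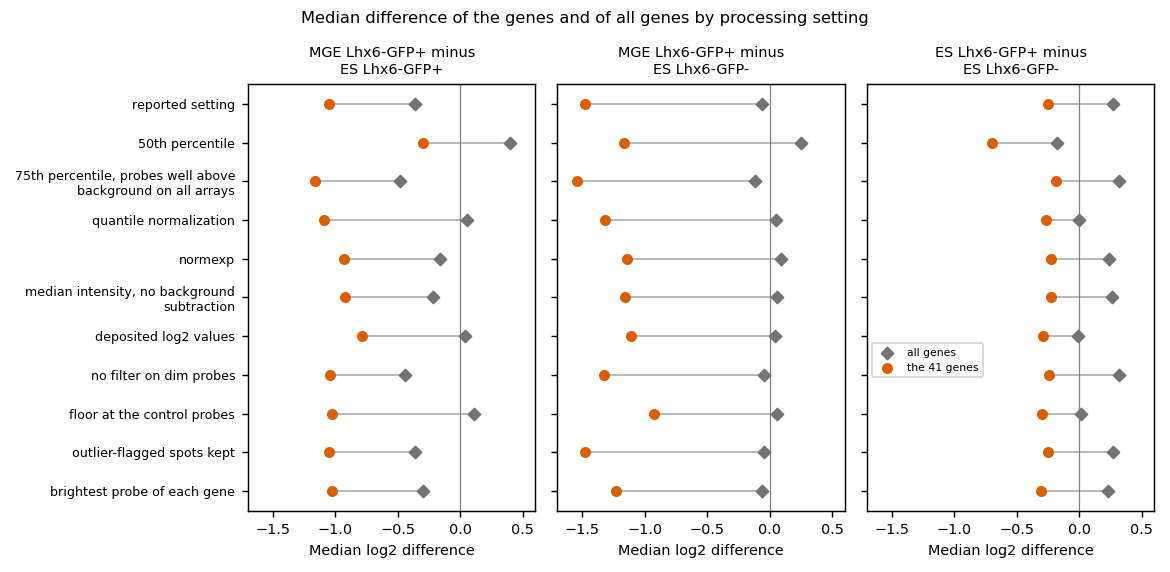
Median log2 difference of the 41 genes (those with a value, circles) and of all genes measured (diamonds) under the reported setting and 10 others, for the 3 comparisons. The circles lie left of the diamonds in each panel and setting; for MGE Lhx6-GFP+ minus ES Lhx6-GFP- they range from -1.54 to -0.93.

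A second group of 59 genes of the same pathways, not among the 41, was examined alongside. Of 56 measured in both comparisons, 11 were at least 2-fold lower in MGE than in both ES populations and 1 was higher at 2-fold, where all genes gave 11.8% and 3.46%. The higher one was Pdhb, a subunit of pyruvate dehydrogenase, with levels of 3.37, 1.76 and 1.59. Those at least 4-fold lower in MGE than in both were Bhlhe40, Bhlhe41, Plod2, Car12 and Hif3a. None of these was above the controls in MGE cells, and of them only Plod2 was above the controls in ES Lhx6-GFP+. Bhlhe40, a hypoxia-induced repressor, had levels of -5.45, -1.13 and -2.01, which is 10.8-fold and 20-fold lower in MGE than in ES Lhx6-GFP+ and ES Lhx6-GFP-. Plod2, a collagen lysyl hydroxylase, had levels of -3.11, 0.84 and -0.49. Car12, a carbonic anhydrase, was not well above background in MGE and had levels of -1.06 and -3.15 in the ES populations. Hif3a, another HIF-alpha gene, had levels of -3.75, -0.23 and -1.54.

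The labelled identity of the cells was checked against marker genes. All 12 markers of the MGE Lhx6 lineage were above the controls on all 3 arrays, and their summed linear level, in units of the 75th percentile, was 211 in MGE Lhx6-GFP+, 31.7 in ES Lhx6-GFP- and 127 in ES Lhx6-GFP+. The 10 neuronal markers summed to 471, 314 and 392.

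Other cell types moved with some of the results. The 10 radial glia markers, among them Vim and Fabp7, summed to 16.2 in MGE, 65.3 in ES Lhx6-GFP- and 13.2 in ES Lhx6-GFP+, and all 10 were lower in ES Lhx6-GFP+ than in ES Lhx6-GFP-. Against ES Lhx6-GFP+, Slc1a3, Hes1 and Pax6 among them were also at least 2-fold lower in MGE cells, but within the control range on both arrays. Sox2 and Prom1 were at least 2-fold higher in MGE cells there, and the median difference of the 10 markers was -0.04. The 5 oligodendrocyte lineage markers summed to 1.31, 7.82 and 1.27, with 1, 3 and 1 above the controls in the same order, and Olig1, Olig2 and Sox10 fell short of ES Lhx6-GFP- in the ES Lhx6-GFP+ cells by 8.78-fold, 7.63-fold and 7.78-fold. Pdgfra was 1.82-fold lower and Cspg4 1.12-fold higher in that comparison, both within the control range on every array. The part of radial glia and oligodendrocyte lineage cells in the differences given here was not tested. The 7 mesenchymal markers summed to 0.325, 5.93 and 3.95, with none above the controls in MGE, 6 in ES Lhx6-GFP- and 2 in ES Lhx6-GFP+ (Col1a2 and Col3a1), and Col1a1, Lum and Twist1 not well above background in MGE. P4ha1, P4ha2 and Plod2 modify collagen, and the part of such cells in their values was not tested. The 10 cell cycle markers summed to 7.62, 12.1 and 3.21. Of 6 pluripotency markers, all were above the controls in ES Lhx6-GFP- and 1 on each of the other arrays. That 1 was Nanog, whose probe read 8.61, 8.22 and 8.27 and made up most of the sums of 391, 306 and 310. Which transcripts this probe reads was not examined. Dppa5a, a gene of undifferentiated ES cells, read -3.88, 2.49 and -2.01. The part of dividing or undifferentiated cells in the higher levels of ES Lhx6-GFP- was not tested. The 7 erythroid markers summed to 20.8 in MGE, mostly Hba-a1 and Hbb-y, beside 0.923 and 1.37. The 8 endothelial markers, with which Epas1 is often found, summed to 1.14, 0.921 and 1.11, and 1, 2 and none of them were above the controls.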

How the data were processed

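RNA from 3 sorted populations was measured on 3 one-colour Agilent arrays on 1 slide, 1 array per population. The deposited scanner files hold spot intensities from Feature Extraction 10.7.3.1 on a linear scale, with the software's processed signal, outlier flags and background calls. The labels name a low-input amplification kit and a 4x44K array, whereas the study's methods name whole transcriptome amplification and an 8x60K array, and the 62976 spots per file fit the latter. A table of log2 values was deposited too, whose processing is not given in the sources used here. It followed quantile-normalized log2 median intensity to within 0.212 on each array, and was used as an alternative.

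Here, log2 processed signals of unflagged mouse spots were averaged per probe and set relative to the array's 75th percentile, using Python 3.11.15, numpy 2.4.6 and pandas 2.3.3. A probe counted as detected where at least a 0.5 share of its spots had the software's call of well above background. Where it was detected in 1 of 2 arrays, the undetected side was raised to the lowest signal among detected probes of that array if that was higher, which gives a bound on the fold change. Where neither was detected there is no value. Of 55681 mouse probes, 26582 were matched by RefSeq accession to 20145 genes (GRCm38.p6), and a gene's difference is the mean over its probes. A call means at least 2-fold, and no p-value is given because each group is 1 array. The SD of log2 signals of repeated spots was 0.144, 0.142 and 0.14 on the MGE, ES Lhx6-GFP- and ES Lhx6-GFP+ arrays, so 2 SDs of a difference correspond to 1.32-fold; this covers technical spot error only.

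The 41 genes, the other lists and the rules were chosen with earlier results of these data known. Members at least 2-fold apart from MGE in both ES populations, or between these, were named with all values, and genes of the other pathway lists where at least 4-fold apart in both. In all, 10 alternatives were planned (scaling, background correction, filters, flags, probe choice and the deposited table) and 1 was added after seeing the data, which kept genes with a mean level above the control probes. The files used here hold no mean signal, so normexp (limma 3.58.1, R 4.3.3, offset 50) was run on the median spot signal and median background. The computation of differences was tested on simulated data.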

Additional observations from a re-analysis of the deposited data

How the results depend on the processing

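With 1 array per population no replicate could be left out, and a difference beyond the spread of spots may still come from the animals, the culture or the preparation. No paired analysis was possible because each group has 1 array. Scaling to the 50th percentile changed the counts most: in MGE Lhx6-GFP+ against ES Lhx6-GFP+, 14 of the genes were lower and 10 higher, with a median of -0.30; against ES Lhx6-GFP- 4 were higher, with a median of -1.17; between the ES populations 15 were lower in ES Lhx6-GFP+, with a median of -0.70; and 4 were higher in MGE than in both. Quantile normalization gave 4 genes higher in MGE than in ES Lhx6-GFP+ and 2 higher than in both, and turned P4ha1 to 0.40 in the first comparison. A floor at the control probes gave 1 gene higher in MGE than in ES Lhx6-GFP+ and 0 higher than in both, and a median of -0.93 against ES Lhx6-GFP-. In that last comparison the median was -1.14 with normexp, -1.16 with median intensity, -1.11 with the deposited values, -1.23 with the brightest probe and -1.06 among genes with a mean level above the controls, a filter that a gene low in MGE can pass through the ES arrays, and 1 gene was higher with normexp, with median intensity and with the deposited values. Normexp left 0 genes higher in MGE than in both, the deposited values gave a median of -0.79 against ES Lhx6-GFP+, and the brightest probe gave 1 gene, Pfkp, higher in ES Lhx6-GFP+ than in ES Lhx6-GFP-. The cause of these shifts was not tested. The count of genes lower in MGE than in both ES populations ran from 14 to 23 over the settings. No share of all genes is given beside the counts in this section, so they describe the listed genes only. Of 56 single differences called at 2-fold, 47 stayed called at the 50th percentile, 50 with normexp and 51 with the deposited values.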
